A study of Schizosaccharomyces pombe with 4 samples.

Results

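Genes lying within 100 kb of either end of fission yeast chromosome I were followed in RNA of Schizosaccharomyces pombe. A gene was taken when it lay on chromosome I, was tested by the authors (status OK), and had a start of at most 100 kb or an end within 100 kb of the largest end listed on the chromosome. Noncoding, structural and transfer RNAs were left out by their IDs, and genes of several named families (ght, pdc, pho, pfl, str, isp, atd and ribosomal proteins) by their symbols. This gave 57 of the 7092 genes in the table, with 31 at the left end and 26 at the right end. By RefSeq's annotation 52 of the 57 are protein-coding and 5 are pseudogenes (SPAC212.10, SPAC212.09c, SPAC212.07c, SPAC212.05c and SPAC977.13c), so the set is not purely one of protein genes.

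The series compared 2 groups of 2 libraries, each from h90 cells with ade6, leu1 and ura4 in the genotype, in which pcr1 was replaced by ura4+. One group carried the plasmid pREP41-Atf1 and the other the empty plasmid pREP41, whose nmt1 promoter is repressed by thiamine. Per the labels, cells of both groups grew at 30 °C in leucine-free minimal medium with 20 µM thiamine overnight and then for 24 h without it, and whether the 2 libraries of each group are separate cultures is not stated in the labels. The files give 1 pooled value per group and gene, as FPKM (fragments per kilobase of transcript, scaled to the total of mapped fragments), so no value has an SD and the depth is unknown.

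The ends of fission yeast chromosomes I and II carry subtelomeres, long stretches next to the telomere that are packed into heterochromatin or a related compact chromatin and whose genes are mostly kept at low expression in growing cells. They hold repeated DNA shared between chromosome ends, among it the tlh helicase genes, and many genes for transport, for use of nitrogen and carbon sources, and for responses to starvation. Atf1 is a transcription factor of the bZIP family that acts in the stress response, mostly as a dimer with Pcr1, and it also takes part in heterochromatin formation at the mating-type region.

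The genotype genes did not follow the labels, so the groups are called Atf1-labelled and vector-labelled. The level of atf1 was 54.4 FPKM in Atf1-labelled cells and 60.9 FPKM in vector-labelled cells (q = 0.997 in the authors' deposited table). The pcr1 gene, named as deleted, was at 66.4 FPKM in Atf1-labelled and 35.8 FPKM in vector-labelled cells (q = 0.774 in the authors' deposited table). The marker ura4, named as present in all libraries, was listed at 0 in Atf1-labelled cells and at 125 FPKM in vector-labelled cells (q = 0.00809 in the authors' deposited table). Of 43 structural RNAs, which carry no poly(A) tail, 40 had a higher level in Atf1-labelled cells, with a median difference of 3.11 on the log2 scale. The part of these features in the results below was not tested.

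Sequences of 2 nearby right-end genes and of a pair of copies at opposite ends show how far reads of these genes can be told apart. SPAC186.02c and SPAC186.07c are related 2-hydroxyacid dehydrogenase genes, each of 999 coding bases, that share 69.3% of their bases. Their first 90 coding bases are given with the 31 differing bases in capitals (RefSeq, ASM294v3, minus strand, genes at chrI:5529851-5530960 and chrI:5545615-5546613).
SPAC186.02c: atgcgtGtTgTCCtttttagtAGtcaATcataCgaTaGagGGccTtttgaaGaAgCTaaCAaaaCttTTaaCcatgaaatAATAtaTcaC
SPAC186.07c: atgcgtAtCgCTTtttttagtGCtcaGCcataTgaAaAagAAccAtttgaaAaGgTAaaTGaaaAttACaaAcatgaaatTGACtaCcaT

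The methyltransferase-like genes SPAC977.03 at the left end and SPAC750.03c at the right end differ in 3 of 438 coding bases. Their first 90 coding bases are given with the 2 differing bases in capitals (RefSeq, ASM294v3, genes at chrI:33835-34272 on the plus strand and chrI:5562608-5563045 on the minus strand).
SPAC977.03: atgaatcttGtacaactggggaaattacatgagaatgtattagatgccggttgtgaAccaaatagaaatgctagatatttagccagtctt
SPAC750.03c: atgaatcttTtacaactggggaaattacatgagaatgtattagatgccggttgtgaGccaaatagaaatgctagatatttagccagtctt

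Most of these genes were read at a higher level in Atf1-labelled cells. The median level of the 57 genes was 14.3 FPKM in Atf1-labelled cells and 0.860 FPKM in vector-labelled cells, against 18.7 FPKM in Atf1-labelled and 22.4 FPKM in vector-labelled cells over 4902 nuclear genes chosen by the same IDs and symbols. Their median difference, in log2(FPKM + 1) and Atf1-labelled minus vector-labelled, was 1.88, against -0.23 over the 4902 genes. A difference above 0 was seen in 50 of the 57 genes, against 39.1% of the 4902, and in 46 of the 57, against 18.2% of the 4902, when the FPKM totals of both groups were made equal. In Atf1-labelled cells 5 of the 57 genes were under 1 FPKM, and in vector-labelled cells 29 were under 1 FPKM, of which 4 were listed at 0. In RNA of a whole culture, a difference in all cells and one in some of them cannot be told apart. The 5 pseudogenes had a median difference of 1.76 and the 52 protein-coding genes one of 1.98.

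**Figure D1:**
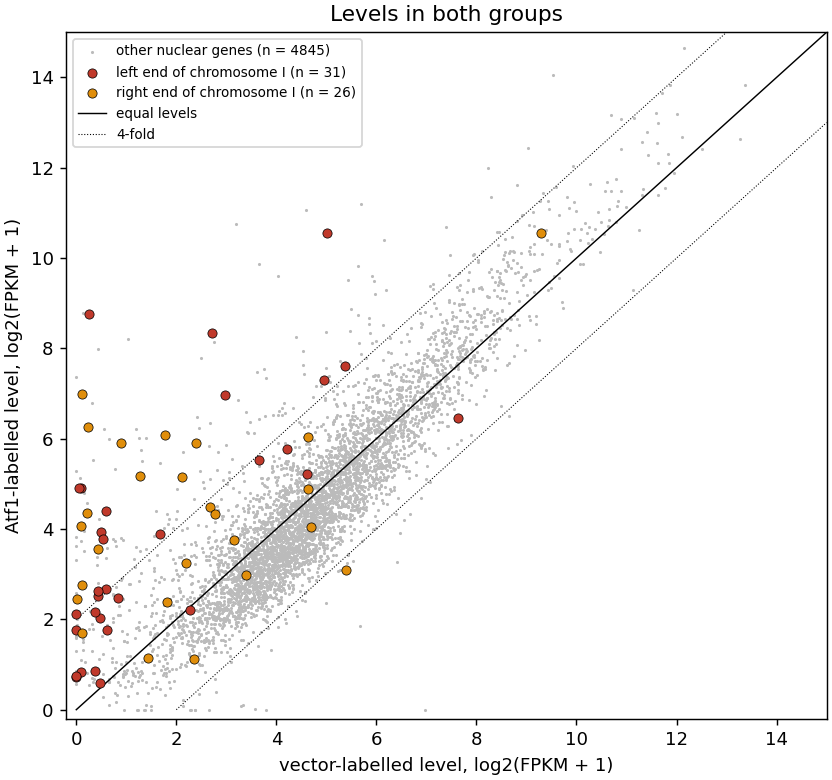
Level of each nuclear gene as log2(FPKM + 1), vector-labelled on the horizontal and Atf1-labelled on the vertical axis, with left-end genes in red, right-end genes in orange and the other 4845 genes in grey. Most coloured points lie above the line of equal levels, and 28 lie at or above the dotted 4-fold line.

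The authors' deposited table calls 8 of the 57 genes higher (14.0%) and 1 lower (1.75%) at q under 0.05, against 1.63% and 0.0816% of the 4902 nuclear genes. At an unadjusted p under 0.05, 28 were higher, against 6.34% of the 4902, and 1 was lower, against 4.88%. By value alone, 28 genes were at least 4-fold higher, against 3.69% of the 4902, and 1 was at least 4-fold lower, against 0.857%. A 4-fold difference is one of at least 2 on the log2(FPKM + 1) scale, which understates the change of genes with low levels. Of the 28 genes at least 4-fold higher, 8 were called (28.6%), against 63 of 153 other nuclear genes that were as much higher (41.2%). Of these 28 genes, 18 were under 1 FPKM in vector-labelled cells, and 3 of those 18 were called, while 5 of the other 10 were. Large differences without a call were frequent here, and such genes are described by their values only.

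At the left end 16 of 31 genes were at least 4-fold higher and none as much lower, with 4 called higher. The right end had 12 of 26 at least 4-fold higher and 1 lower, with 4 called higher and 1 lower. The median difference was 2.08 at the left end (quartiles 0.95 and 3.34) and 1.70 at the right end (quartiles 0.58 and 3.81). These ranges overlap broadly, and a test of left against right could not be computed from 1 value per group. In vector-labelled cells, 20 of 31 left-end genes and 9 of 26 right-end genes were under 1 FPKM.

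The differences were spread unevenly along both ends. At the left end the median difference was 1.70 over 10 genes within 25 kb, 2.12 over 9 genes at 25 to 50 kb, 2.22 over 9 genes at 50 to 75 kb and 4.87 over 3 genes at 75 to 100 kb. At the right end it was 0.14 over 4 genes within 25 kb, 3.97 over 7 genes at 25 to 50 kb, 1.59 over 5 genes at 50 to 75 kb and 1.54 over 10 genes at 75 to 100 kb. Spearman's rho between distance and difference was 0.34 over the 31 left-end genes and -0.13 over the 26 right-end genes. Between distance and level it was 0.60 in Atf1-labelled and 0.27 in vector-labelled cells at the left end, and 0.22 in Atf1-labelled and 0.39 in vector-labelled cells at the right end. All points come from the same pooled libraries, and neighbouring genes can share reads, so these values describe the genes only.

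**Figure D2:**
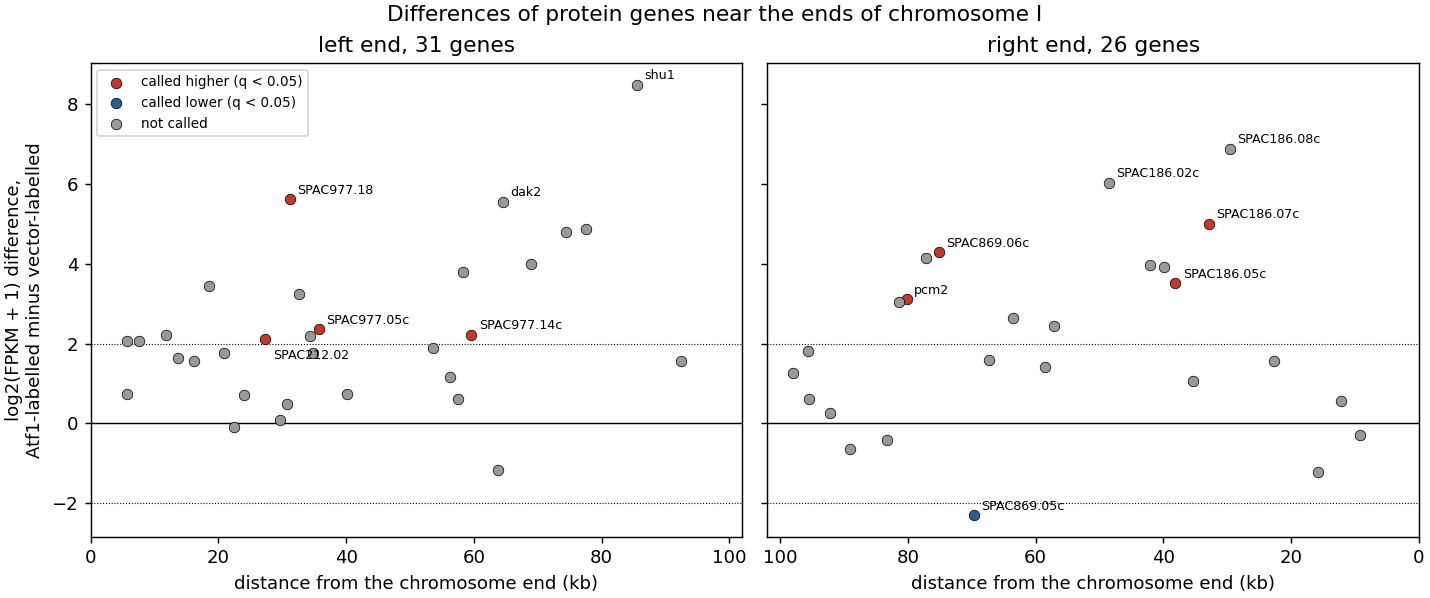
Difference in log2(FPKM + 1), Atf1-labelled minus vector-labelled, of each gene against its distance from the chromosome end in kb, for the left end (31 genes) and the right end (26 genes). Red points are called higher, the blue point is called lower and grey points are not called, and dotted lines mark 4-fold differences. The 4 right-end genes nearest to the end lie on both sides of 0, from -1.23 to 1.57, and the 7 genes from 25 to 50 kb are all above 0.

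On the inner side of the 100 kb limit the differences were smaller. Over the 43 left-side genes at 100 to 200 kb the median was 0.16 with 3 called higher, and over the 35 right-side genes it was -0.12 with none called. The 2095 genes of chromosome I more than 200 kb from an end had a median of -0.28, of which 53 (2.53%) were at least 4-fold higher. The genes just inside the limit were SPAC1F8.04c on the left (Atf1-labelled 53.6 FPKM, vector-labelled 17.5 FPKM) and SPAC922.04 on the right (Atf1-labelled 1495 FPKM, vector-labelled 625 FPKM). Just outside it lay fta5 on the left (Atf1-labelled 80.6 FPKM, vector-labelled 5.36 FPKM, q = 0.00809 in the authors' deposited table) and SPAC922.03 on the right (Atf1-labelled 34.4 FPKM, vector-labelled 37.4 FPKM). By the same rule, the 29 left-end and 27 right-end genes of chromosome II had medians of 1.91 and 1.98, and the 28 and 34 genes of chromosome III had medians of -0.07 and 0.00. With 1 value per group, none of these zone differences could be tested.

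**Figure D3:**
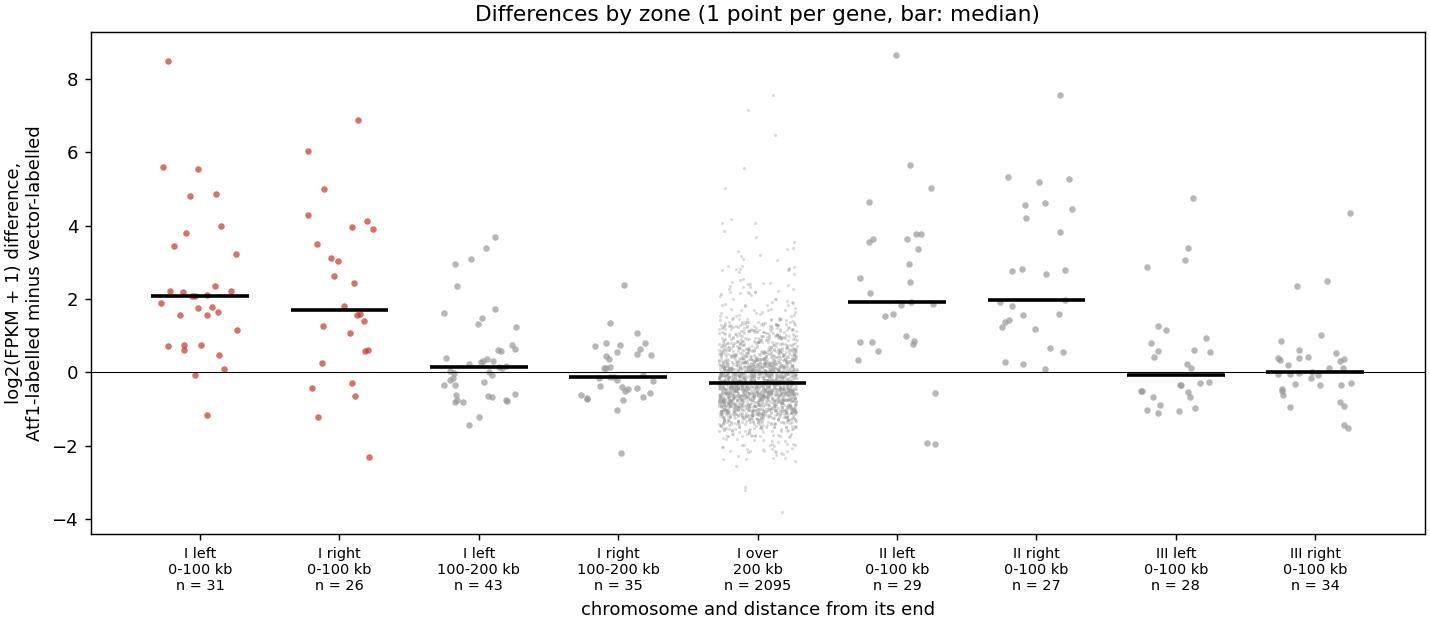
Difference in log2(FPKM + 1), Atf1-labelled minus vector-labelled, of each gene by chromosome and distance from its end, with bars at the medians and the number of genes under each zone. The ends of chromosome I (red) have medians of 2.08 and 1.70, those of chromosome II 1.91 and 1.98, and the rest of chromosome I lies near 0.

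Most of the outermost left-end genes belong to repeats that several chromosome ends share, and all were at 14.3 FPKM or less in both groups. The gene nearest to the end, tlh1 (SPAC212.11, chromosome I 1-5662), encodes a RecQ-type DNA helicase typical of subtelomeres. It was at 5.41 FPKM in Atf1-labelled cells and 0.520 FPKM in vector-labelled cells (q = 0.118 in the authors' deposited table). Its copy tlh2 at the right end of chromosome II was at 4.84 FPKM in Atf1-labelled and 0.665 FPKM in vector-labelled cells (q = 0.0289 in the authors' deposited table). The helicase fragment SPAC212.06c, of which 52.5% matches tlh1 at 99.4% identity, was at 14.3 FPKM in Atf1-labelled and 0.403 FPKM in vector-labelled cells (q = 0.418 in the authors' deposited table). The pseudogene SPAC212.09c was at 4.72 FPKM in Atf1-labelled and 0.356 FPKM in vector-labelled cells (q = 0.0841 in the authors' deposited table). Its neighbour SPAC212.10 stayed under 1 FPKM, at 0.784 FPKM in Atf1-labelled and 0.0731 FPKM in vector-labelled cells. Over their full lengths they match far more abundant genes. These are mae2 (90.8% identity, Atf1-labelled 987 FPKM, vector-labelled 259 FPKM) for SPAC212.09c and mae1 (91.7% identity, Atf1-labelled 375 FPKM, vector-labelled 118 FPKM) for SPAC212.10. Whether their reads were counted at the pseudogenes was not tested. The GPI-anchored protein genes SPAC212.08c (Atf1-labelled 13.8 FPKM, vector-labelled 2.18 FPKM) and SPAC212.12 (Atf1-labelled 3.08 FPKM, vector-labelled 0.388 FPKM) share a stretch of 96.3% identity, which covers all of SPAC212.12 but not of SPAC212.08c, and were not called. The pseudogenes SPAC212.07c (Atf1-labelled 4.56 FPKM, vector-labelled 0.786 FPKM) and SPAC212.05c (Atf1-labelled 2.40 FPKM, vector-labelled listed at 0) and the uncharacterised gene SPAC212.03 (Atf1-labelled 0.652 FPKM, vector-labelled listed at 0) were low and not called.

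One gene of this outermost block rose. SPAC212.02, a gene of unknown function at chromosome I 27353-27763, was at 3.34 FPKM in Atf1-labelled cells and listed at 0 in vector-labelled cells (q = 0.00809 in the authors' deposited table). Its copy on chromosome II, SPBCPT2R1.02, matches it fully over 86.9% of the gene. That copy was at 8.23 FPKM in Atf1-labelled and 0.341 FPKM in vector-labelled cells and was not called (q = 0.801 in the authors' deposited table). Levels of both are low, and reads from either gene could be counted at the other.

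Near-identical copies marked the outer parts of both ends. Of the 57 genes, 21 had a copy of at least 95% identity over at least 50% of the gene, and each of the 21 had such a copy on chromosome II. These were 16 of the 19 left-end genes within 50 kb, 1 of the 12 farther in, and 4 right-end genes, of which 3 lay within 25 kb of the end. Their values are uncertain, because the sources used here do not say how reads matching several copies were counted. The 36 genes without such a copy had a median difference of 2.22, and 19 of them were at least 4-fold higher. Some of these have a less similar copy, since 31 of the 57 genes had one at 70% identity or more. Of the 8 genes called higher, 5 were without a near-identical copy.

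The copies SPAC977.03 and SPAC750.03c, shown above, differed in the sign of their difference. SPAC977.03 was at 5.15 FPKM in Atf1-labelled cells and 0.352 FPKM in vector-labelled cells. SPAC750.03c was at 1.19 FPKM in Atf1-labelled cells and 4.13 FPKM in vector-labelled cells. A further copy on the left end of chromosome II, SPBC1348.04, was at 1.78 FPKM in Atf1-labelled and 9.76 FPKM in vector-labelled cells, and none of these copies was called. The membrane protein genes SPAC977.01 (Atf1-labelled 0.817 FPKM, vector-labelled 0.297 FPKM) and SPAC750.05c (Atf1-labelled 4.23 FPKM, vector-labelled 2.52 FPKM) form a similar pair with 99.8% identity over the aligned coding bases, as do the UPF0494 family genes SPAC212.01c (Atf1-labelled 0.496 FPKM, vector-labelled 0.398 FPKM) and SPAC750.06c (Atf1-labelled 1.21 FPKM, vector-labelled 1.71 FPKM). None of these was called either. The remaining UPF0494 genes, SPAC212.04c (Atf1-labelled 3.59 FPKM, vector-labelled 3.87 FPKM) and SPAC977.06 (Atf1-labelled 0.671 FPKM, vector-labelled listed at 0), were also low.

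**Figure D4:**
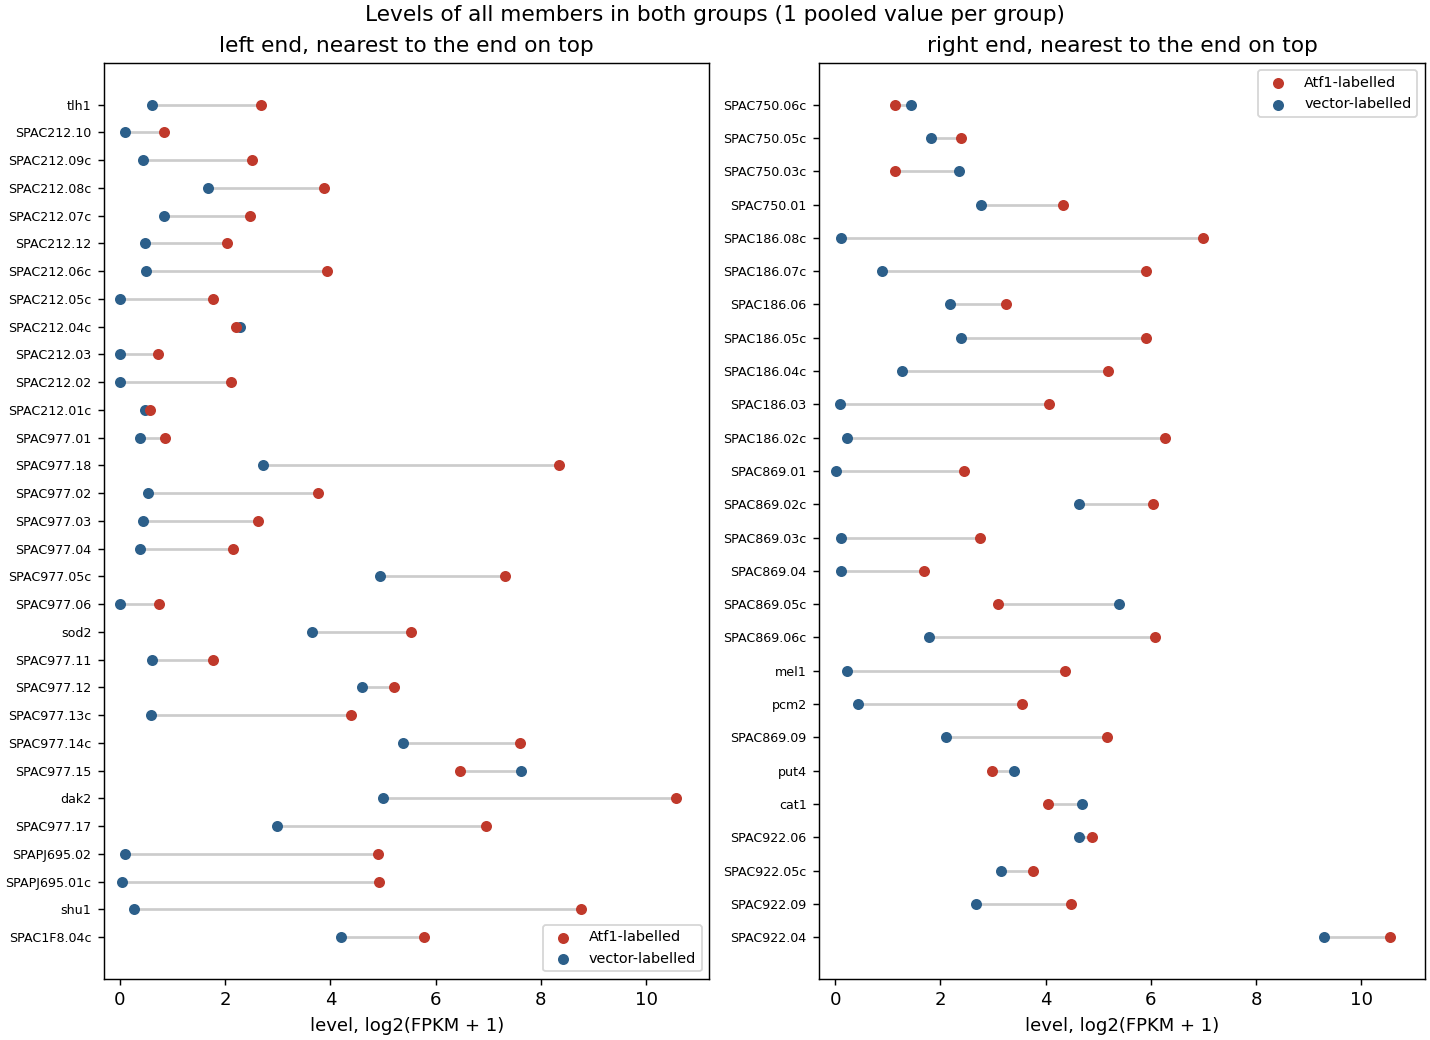
Level of each gene as log2(FPKM + 1) in the Atf1-labelled (red) and vector-labelled (blue) group, with 1 pooled value per group joined by a grey line and genes ordered from the chromosome end downwards. The Atf1-labelled level lies to the right in 29 of 31 left-end genes and in 21 of 26 right-end genes.

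The left-end genes of the SPAC977 block from 30 to 70 kb reached higher levels, and 3 of its 15 genes rose. SPAC977.18, a UPF0768 family gene at chromosome I 31140-33012, was at 322 FPKM in Atf1-labelled cells and 5.60 FPKM in vector-labelled cells, a 57.6-fold difference (q = 0.00809 in the authors' deposited table). It shares its locus with SPAC977.02 (Atf1-labelled 12.7 FPKM, vector-labelled 0.448 FPKM, not called). Its copy on chromosome II, SPBPB2B2.18, has 98.1% identity over 75.9% of the gene. That copy was at 9.27 FPKM in Atf1-labelled and 0.512 FPKM in vector-labelled cells and was not called. SPAC977.05c (chromosome I 35768-36382) is related to the VEL1 protein of budding yeast. It was at 158 FPKM in Atf1-labelled and 29.9 FPKM in vector-labelled cells, a 5.27-fold difference (q = 0.0241 in the authors' deposited table). Its copies on chromosome II, each with 99.3% identity, were higher by value but not called. SPBPB2B2.15 was at 30.5 FPKM in Atf1-labelled and 12.4 FPKM in vector-labelled cells. SPBC1348.06c was at 10.8 FPKM in Atf1-labelled and 5.94 FPKM in vector-labelled cells. SPAC977.14c, a putative aryl-alcohol dehydrogenase gene (chromosome I 59614-60907), was at 193 FPKM in Atf1-labelled and 40.6 FPKM in vector-labelled cells, a 4.76-fold difference (q = 0.00809 in the authors' deposited table). Its relative at the right end, SPAC750.01, shares 93.7% of the aligned coding bases and was at 19.2 FPKM in Atf1-labelled and 5.81 FPKM in vector-labelled cells without a call.

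Other genes of that block differed as much by value without a call. The dihydroxyacetone kinase gene dak2, whose enzyme acts in the use of glycerol, was at 1514 FPKM in Atf1-labelled cells and 31.1 FPKM in vector-labelled cells (q = 0.395 in the authors' deposited table). Its neighbour in the same locus, the membrane protein gene SPAC977.17, was at 124 FPKM in Atf1-labelled and 6.90 FPKM in vector-labelled cells. The pseudogene SPAC977.13c was at 20.1 FPKM in Atf1-labelled and 0.510 FPKM in vector-labelled cells. Against the direction of its neighbours, the AIM2 family gene SPAC977.15, which lies between SPAC977.14c and dak2, was at 87.3 FPKM in Atf1-labelled cells and 197 FPKM in vector-labelled cells (q = 0.855 in the authors' deposited table).

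Farther in, 3 left-end genes were near 0 in vector-labelled cells and at 29.1 FPKM or more in Atf1-labelled cells, without a call. The gene shu1 (SPAC1F8.02c, chromosome I 85566-86324), whose GPI-anchored product takes up haem, had the largest difference of the 57 genes. It was at 431 FPKM in Atf1-labelled cells and 0.199 FPKM in vector-labelled cells, a difference of 8.49 on the log2 scale (p = 0.0555 and q = 0.701 in the authors' deposited table). SPAPJ695.02 was at 29.1 FPKM in Atf1-labelled and 0.0733 FPKM in vector-labelled cells, and the UPF0321 family gene SPAPJ695.01c at 29.2 FPKM in Atf1-labelled and 0.0335 FPKM in vector-labelled cells. Neither gene was called (q = 0.626 for SPAPJ695.02 and 0.997 for SPAPJ695.01c in the authors' deposited table), and neither shares its locus.

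At the right end the genes at least 4-fold higher lay in a stretch from SPAC869.09 to SPAC186.08c, bounded after the values were seen by the outermost such genes, so that what lies inside and outside it follows from that choice. Of its 16 genes, 12 were at least 4-fold higher and 1 as much lower, with a median difference of 3.31. On its inner side, SPAC922.04 was the most abundant right-end gene, at 1495 FPKM in Atf1-labelled cells and 625 FPKM in vector-labelled cells. Beside it, SPAC922.09 was at 21.4 FPKM in Atf1-labelled and 5.35 FPKM in vector-labelled cells, SPAC922.05c, an UNC93-like gene, at 12.5 FPKM in Atf1-labelled and 7.90 FPKM in vector-labelled cells, and the oxidoreductase gene SPAC922.06 at 28.6 FPKM in Atf1-labelled and 23.8 FPKM in vector-labelled cells.

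The 4 right-end genes that rose have no near-identical copy and encode proteins of different kinds. SPAC869.06c, named hry1 in RefSeq and encoding a hemerythrin-like protein (chromosome I 5502560-5503291), was at 66.4 FPKM in Atf1-labelled cells and 2.43 FPKM in vector-labelled cells, a 27.3-fold difference (q = 0.00809 in the authors' deposited table). SPAC186.05c (chromosome I 5540032-5541502), a relative of budding yeast GDT1, which carries calcium and manganese ions into the Golgi, was at 58.6 FPKM in Atf1-labelled and 4.24 FPKM in vector-labelled cells, a 13.8-fold difference (q = 0.00809 in the authors' deposited table). SPAC186.07c, one of the dehydrogenase genes shown above (chromosome I 5545615-5546648), was at 58.8 FPKM in Atf1-labelled and 0.860 FPKM in vector-labelled cells, a 68.3-fold difference (q = 0.0444 in the authors' deposited table). It shares its locus with another gene. The gene pcm2 (SPAC869.08, chromosome I 5497918-5499280), for an enzyme that repairs damaged aspartate residues in proteins, was at 10.8 FPKM in Atf1-labelled and 0.354 FPKM in vector-labelled cells, a 30.4-fold difference (q = 0.0369 in the authors' deposited table).

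Enzymes of oxidation and reduction were all higher by value, in 7 of 7 genes, with 2 called. With the totals of both groups made equal, the difference of SPAC922.06 was -0.38 and the other 6 stayed above 0. Of genes of this class elsewhere 63.2% were above 0 and 6.13% were called higher. The median difference was 2.22 in the 7 genes, against 0.39 elsewhere. Over all 57 genes near the ends it was 1.88, with 50 above 0, so the class was close to its surroundings. The dehydrogenase gene SPAC186.02c was at 76.0 FPKM in Atf1-labelled cells and 0.175 FPKM in vector-labelled cells (q = 0.515 in the authors' deposited table), a difference of 6.03 on the log2 scale beside 5.01 in its relative SPAC186.07c. The lactate dehydrogenase gene SPAC186.08c was at 126 FPKM in Atf1-labelled and 0.0778 FPKM in vector-labelled cells (q = 0.766 in the authors' deposited table). The flavohaemoprotein gene SPAC869.02c (yhb1 in RefSeq), whose budding yeast relative detoxifies nitric oxide, was at 64.9 FPKM in Atf1-labelled and 23.9 FPKM in vector-labelled cells (q = 0.220 in the authors' deposited table).

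The class of other enzymes held 12 genes, of which 11 were above 0 and 1, pcm2, was called. Of 1414 such genes elsewhere 41.6% were above 0 and 14 were called higher. The median difference was 2.31 in the 12 genes, against -0.16 elsewhere and 1.88 over all 57 genes. With equal totals the difference of SPAC977.12 was -0.036. Among them are several that release ammonium from amides. The asparaginase genes SPAC186.03 and SPAC977.12, which share 71.5% of their aligned coding bases, were at 15.7 FPKM in Atf1-labelled and 0.0643 FPKM in vector-labelled cells and at 36.1 FPKM in Atf1-labelled and 23.4 FPKM in vector-labelled cells. Each of them has a near-identical copy on chromosome II. The formamidase gene SPAC869.04 was at 2.24 FPKM in Atf1-labelled and 0.0753 FPKM in vector-labelled cells and the amidase gene SPAC869.01 at 4.45 FPKM in Atf1-labelled and 0.00846 FPKM in vector-labelled cells. The alpha-galactosidase gene mel1 was at 19.6 FPKM in Atf1-labelled cells and 0.164 FPKM in vector-labelled cells (q = 0.491 in the authors' deposited table), and the isomerase gene SPAC186.06 at 8.54 FPKM in Atf1-labelled and 3.55 FPKM in vector-labelled cells.

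Genes classed as transporters by the words of their protein names were split in direction. Of 6 genes, 3 were above 0 and 3 below, with none called higher and a median difference of 0.68. Of 201 transporter genes elsewhere 58.2% were above 0 and 7 were called higher, with a median of 0.14. The sulfate permease gene SPAC869.05c (sul2 in RefSeq, chromosome I 5505583-5508782) fell to 7.54 FPKM in Atf1-labelled cells, against 41.0 FPKM in vector-labelled cells, a 5.44-fold lower level (q = 0.0142 in the authors' deposited table). It is the 1 gene of the 57 called lower, and lies between genes that were higher by value. The amino acid permease genes cat1, for cationic amino acids, and put4, probably for proline, were at 15.5 FPKM in Atf1-labelled and 24.8 FPKM in vector-labelled cells and at 6.90 FPKM in Atf1-labelled and 9.54 FPKM in vector-labelled cells. The urea transporter gene SPAC869.03c was at 5.74 FPKM in Atf1-labelled cells and 0.0827 FPKM in vector-labelled cells. The gene sod2 (SPAC977.10, nhe1 in RefSeq) encodes the sodium/proton antiporter that exports sodium, and was at 45.1 FPKM in Atf1-labelled and 11.5 FPKM in vector-labelled cells, just short of a call (q = 0.0512 in the authors' deposited table). It shares its locus with 2 other genes. The transporter fragment SPAC977.04 was at 3.46 FPKM in Atf1-labelled and 0.304 FPKM in vector-labelled cells. The fluoride exporter gene SPAC977.11 (fex1 in RefSeq), which the description text does not place among transporters, was at 2.39 FPKM in Atf1-labelled and 0.527 FPKM in vector-labelled cells. That text also leaves out SPAC186.05c, the GDT1 relative called higher. Genes left out by symbol, among them ght3 and str3, both called higher, could not enter the class. The split in direction therefore holds for the class as defined here only.

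Genes of unknown function formed the largest class, with 20 genes, 17 above 0 and 3 called higher. Near 0, SPAC212.01c was at -0.11 with equal totals and SPAC212.04c at 0.011 with median-of-ratios scaling. Of 830 such genes elsewhere 39.9% were above 0 and 15 were called higher. The median difference was 1.69 in the 20 genes, against -0.22 elsewhere and 1.88 over all 57 genes. Those without a call include SPAC186.04c (Atf1-labelled 35.3 FPKM, vector-labelled 1.41 FPKM) and the UPF0654 family gene SPAC869.09 (Atf1-labelled 34.7 FPKM, vector-labelled 3.32 FPKM), which shares its locus. No gene was placed in the class of DNA and RNA binding, since the helicase genes counted as enzymes. Classes were read from the protein names in the authors' deposited table.

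Beyond position, the genes shared a simple structure. In RefSeq 49 of 57 (86.0%) have a single coding exon, against 52.5% of 4834 other nuclear genes with a coding sequence. Their median coding length was 843 bases, against 1164 bases elsewhere, and the median GC content of the coding sequence was 38.7% against 39.5%. The 5 pseudogenes were counted in these values by the coding sequence that RefSeq lists for them.

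The 250 bases before each gene start annotated in RefSeq were searched on both strands for TGACGT, the core of the site bound by Atf1 and Pcr1. It was found before 7 of the 57 genes (12.3%), against 5.64% of 4891 nuclear genes with such a window. Of the 28 genes at least 4-fold higher 6 had it (21.4%), and of the other 29 genes 1 did (3.45%). The share among equally raised genes elsewhere was not computed, and whether the site goes with the difference was not tested. Over the 4891 genes the median difference was 0.12 with the site and -0.25 without it. The genes near the ends with the site were SPAC212.02, SPAC977.13c, SPAC977.14c, SPAC869.09, SPAC186.02c, SPAC186.06 and SPAC186.07c. Of these, SPAC186.07c, SPAC977.14c and SPAC212.02 are among the 8 called higher. In SPAC212.02, SPAC977.14c and SPAC869.09 the site with 15 bases on either side overlaps an annotated exon. In SPAC977.14c and SPAC869.09 it also lies inside Cuffdiff's locus of the gene, and so not before it. Such overlaps were not removed from any of these shares. For CCCCTC, the site of the transcription factor Rst2, no match was found before the 57 genes, against 1.72% of 4891. The 2 motifs have no overlap with each other, TGACGT can overlap its own reverse complement, each gene was counted once, and a match is a run of letters and not a measured site.

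The site is shown with its flanks where the window lies outside every annotated exon (RefSeq, ASM294v3), because these genes include the related dehydrogenases. Capitals mark TGACGT or its reverse complement, and each sequence reads towards the gene. The windows lie at chrI:5546801-5546836 on the minus strand, chrI:5531146-5531181 on the minus strand, chrI:5541810-5541845 on the plus strand and chrI:59239-59274 on the minus strand.
SPAC186.07c: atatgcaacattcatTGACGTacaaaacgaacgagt
SPAC186.02c: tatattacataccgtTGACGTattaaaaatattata
SPAC186.06: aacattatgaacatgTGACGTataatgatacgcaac
SPAC977.13c: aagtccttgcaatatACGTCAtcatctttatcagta

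In SPAC186.07c, SPAC186.02c and SPAC186.06 the site began 208, 206 and 207 bases before the start annotated in RefSeq. These genes lie close together on the right end, where the first 2 had differences of 5.01 and 6.03 on the log2 scale and SPAC186.06 one of 1.07. Cuffdiff's loci of these genes have the 5' limits 5546648, 5531144 and 5542290, which are not RefSeq's starts. The similar distances therefore hold for RefSeq's annotation only.

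Within the same windows, 31 noncoding or structural RNA genes, 7 genes left out by symbol and 6 genes not tested by the authors are not counted here. Of the 7, the authors' deposited table calls ght3, str3 and pdc102 higher, and pdc102 was at 73.9 FPKM in Atf1-labelled cells and 0.596 FPKM in vector-labelled cells, next to SPAC186.08c.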

How the data were processed

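RNA was sequenced in 4 libraries, 2 per group. Per the labels' protocols, RNA was taken with Trizol and libraries made with a stranded mRNA kit. ASM294v2, HISAT2 and Cuffdiff are named in the submitters' processing notes. The authors deposited FPKM, per the file headers, pooled to 1 value per group, with a p-value and a q-value per gene, and both deposited tables hold the same FPKM in all 7092 genes. No counts are used, so depth and precision are unknown. Cuffdiff's p-values rest on at most 2 libraries a group, which could be technical. How the libraries entered them is not known from the pooled values.

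No test was computed here. "Called", "rose" and "fell" mean q under 0.05 in the authors' table. Differences are log2(FPKM + 1), with no filter on low values. The genes, classes, alternatives and the rule for naming genes were chosen with earlier results of these data known. Named were all called genes, per end the 8 largest and 6 smallest other differences reaching 5 FPKM, the 4 nearest to the end, the 3 most abundant, those at the 100 kb limit, and up to 3 per class by p; others were named after their values were seen. In the table, start and end cover a short 3' part of most genes (3 bases in 10 genes), so distance refers to that part and printed positions are Cuffdiff's locus. A locus can hold several genes, as for 11 of the 57.

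RefSeq's ASM294v3, a later build, gave names, copies (BLAST 2.17.0 over 5145 genes) and sequences, and all 57 IDs matched. Scripts ran under Python 3.11.15 with pandas 2.3.3, matplotlib 3.10.9 and numpy 2.4.6. The counting code was tested on simulated data.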

Additional observations from a re-analysis of the deposited data

How the results depend on the processing

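No paired analysis was possible because each group has a single pooled value, and leaving out replicates and limma were not run either. The median differences of 2.08 (left end) and 1.70 (right end) stayed above 0 under every alternative: 2.95 and 2.66 with a pseudocount of 0.1, 0.91 and 1.21 with 5, 2.15 at the left end with a mean of at least 1 FPKM, 3.80 and 1.82 with at least 10, 2.14 and 1.80 with median-of-ratios scaling, 1.57 and 1.28 with equal totals, 1.77 and 3.51 within 50 kb, 1.77 and 1.82 for genes alone in their locus, and 2.22 and 2.13 without near-identical copies, an alternative added after seeing the data. The order of both ends thus depends on the setting. The median of the 4902 genes moved by -0.60 with equal totals and by 0.11 with median-of-ratios scaling, under which 46 and 51 of the 57 genes were above 0. Genes at least 4-fold higher (28) were 18 with a pseudocount of 5, 16 with a mean of at least 10 FPKM and 15 within 50 kb, and 19 to 36 otherwise. The 1 gene at least 4-fold lower was 0 with a pseudocount of 5 and within 50 kb. Called genes (8 higher, 1 lower) were 5 and 0 at q under 0.01, 5 and 0 within 50 kb, and 5 and 1 without near-identical copies. Fewer genes enter under the filters and windows; otherwise the cause was not tested. Of the 57 genes, 4 changed sign with equal totals (SPAC977.12 to -0.036, SPAC922.06 to -0.38, SPAC922.05c to -0.00013 and SPAC212.01c to -0.11) and 1 with median-of-ratios scaling (SPAC212.04c to 0.011). As the depth is unknown, levels under 1 FPKM carry no known precision.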

Other observations

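The 6 genes of both windows that the authors did not test were at or near 0 in both groups. SPAC977.08, SPAC750.07c and SPAC750.08c were listed at 0 in both, SPAC977.09c at 0 in Atf1-labelled cells and 0.00644 FPKM in vector-labelled cells, SPAC750.02c at 0.147 FPKM in Atf1-labelled and 0.0665 FPKM in vector-labelled cells, and SPAC750.04c at 0.144 FPKM in Atf1-labelled cells and 0 in vector-labelled cells. SPAC750.04c and SPAC750.02c match parts of the left-end genes SPAC977.02 and SPAC977.04 without a difference.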
